A study of Mus musculus with 49 samples.

Results

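The genes described here are 9 transcription factor genes that take part in the development of striatal neurons, out of 52636 genes in the count table. They are Isl1, Ebf1, Sp9, Six3, Foxp1, Foxp2, Bcl11b, Zfp521 and Ikzf1, and they were chosen by name, though with earlier results of these data known. The libraries were made from the nucleus accumbens (NAc) of C57BL/6J mice, with 1 mouse per library. Medium spiny neurons (MSNs) that carry the D1 or the D2 dopamine receptor were marked genetically, and their RNA was recovered by 3 methods. Whole cell-FACS, the sorting of dissociated fluorescent cells, gave 8 D1 and 6 D2 libraries from mice heterozygous for a cytoplasmic fluorophore driven by the Drd1 or the Drd2 promoter. Nuclear-FACS, the sorting of nuclei from frozen tissue, gave 6 D1 and 5 D2 libraries from Drd1-cre or Drd2-cre mice crossed with Thy1-loxPSTOPloxP-EGFP-F mice, so that a nucleus was marked only where Cre had acted and the Thy1 promoter was active. RiboTag, the immunoprecipitation of ribosomes bearing HA-tagged Rpl22, gave 6 D1 and 6 D2 libraries labelled male and 5 and 5 labelled female, from Drd1-cre or Drd2-cre mice crossed with Rpl22-loxPexon4loxP-exon4-HA mice. The whole cell and nuclear libraries were labelled male, all mice were untreated as far as the labels say, and no age was given in the sources used here. RiboTag recovers RNA on ribosomes, whereas nuclei hold more unspliced RNA, and in all of these bulk libraries fewer cells of a type and less RNA per cell cannot be told apart.

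D1- and D2-MSNs arise from progenitors of the lateral ganglionic eminence and part into the direct and the indirect pathway of the striatum. Isl1, a LIM homeodomain factor, and Ebf1, a helix-loop-helix factor, are known for their part in the differentiation of direct pathway neurons. Sp9, a zinc finger factor of the Sp family, and Six3, a homeodomain factor, are known for their part in the development of indirect pathway neurons. Foxp1 and Foxp2 are forkhead factors of striatal projection neurons, Bcl11b (CTIP2) is a zinc finger factor of MSNs in general, and Zfp521 and Ikzf1 are zinc finger factors.

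The promoters of Isl1, Sp9 and Six3 are shown because these genes gave the largest differences between D1- and D2-MSNs among the members that passed all filters in RiboTag libraries. Each is the 250 bases before a RefSeq start site on GRCm38.p6, written 5′ to 3′ on the strand of the gene, with capitals where a CCAAT box (CCAAT or ATTGG) or a GC box (GGGCGG or CCGCCC) was matched. These motifs were searched on both strands, they did not overlap in the sequences shown, and a match is a description of the letters only.
Isl1: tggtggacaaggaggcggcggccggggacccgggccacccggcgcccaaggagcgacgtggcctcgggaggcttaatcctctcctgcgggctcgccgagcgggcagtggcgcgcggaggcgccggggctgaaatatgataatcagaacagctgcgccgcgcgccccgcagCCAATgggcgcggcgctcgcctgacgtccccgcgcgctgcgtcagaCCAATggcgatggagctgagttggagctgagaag
Sp9: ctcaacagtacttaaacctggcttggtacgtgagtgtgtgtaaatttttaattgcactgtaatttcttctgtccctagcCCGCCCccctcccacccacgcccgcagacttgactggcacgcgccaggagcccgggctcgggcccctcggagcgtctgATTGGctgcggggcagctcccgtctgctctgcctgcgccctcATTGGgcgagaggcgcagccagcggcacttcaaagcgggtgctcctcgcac
Six3: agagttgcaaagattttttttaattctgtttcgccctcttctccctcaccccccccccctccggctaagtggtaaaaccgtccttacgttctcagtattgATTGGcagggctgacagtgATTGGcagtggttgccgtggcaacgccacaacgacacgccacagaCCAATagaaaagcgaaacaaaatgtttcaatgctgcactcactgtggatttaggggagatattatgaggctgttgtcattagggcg
The stretches lie at chr13:116309689-116309938 on the minus strand for Isl1, at chr2:73271676-73271925 on the plus strand for Sp9 and at chr17:85620584-85620833 on the plus strand for Six3. Isl1 had 2 CCAAT boxes and no GC box, with a GC content of 71.2%, and Sp9 had 2 CCAAT boxes and 1 GC box at 62.4%. Six3 had 3 CCAAT boxes at a GC content of 48.8%, whereas the median over 32841 promoters of the same length was 52.4%. A CCAAT box was present in 33.9% and a GC box in 32.7% of those promoters. RefSeq entries were found for 7 of the 9 members, and Foxp2 and Zfp521 had none.

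The members differ widely in length, which enters the filter on FPKM and the background estimate given with Ebf1. Isl1 (GRCm38 chromosome 13, 116298281 to 116309689, minus strand) spans 11.4 kb, Sp9 (chromosome 2, 73271925 to 73284706, plus strand) 12.8 kb and Six3 (chromosome 17, 85613608 to 85629302, plus strand) 15.7 kb. Ikzf1 (chromosome 11, 11685003 to 11772926, plus strand) spans 87.9 kb and Bcl11b (chromosome 12, 107910403 to 108003602, minus strand) 93.2 kb. The longest are Zfp521 (chromosome 18, minus strand) with 286 kb, Ebf1 (chromosome 11, 44617317 to 45008091, plus strand) with 391 kb, Foxp2 (chromosome 6, 14901349 to 15441977, plus strand) with 541 kb and Foxp1 (chromosome 6, 98925338 to 99522721, minus strand) with 597 kb. Exons cover 39.5% of Sp9 but 2.30% of Foxp1, and fragments were counted over the whole gene body. The counting ignored strand and gave a fragment to each gene it overlapped, so counts of Sp9 and Cir1, of Six3 and Six3os1, of Ebf1 and Gm12158, of Ikzf1 and its overlapping genes Gm11999 and Gm12000, and of Foxp1 and Gm20696, which covers 265238 bases of it, cannot be told apart where they overlap.

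Total counts ranged from 3701255 to 68777008 per library, and 3 counts, the limit that a count of 0 allows, were the floor for detection. Levels are given as CPM, counts scaled to the TMM-adjusted library size, and were not compared between methods, whose libraries were scaled separately. The cell types were tested against each other by edgeR's quasi-likelihood test with Benjamini-Hochberg adjustment, log2 differences are D2 minus D1, and a gene was called at an adjusted p of at most 0.05. The dopamine receptors separated the groups in each of the 4 comparisons, with log2 differences of -5.06 to -1.78 for Drd1 and 1.72 to 5.22 for Drd2. Nuclear Drd2 fell short of a call with the FPM filter alone (0.54) and when exon length replaced the span (0.60) (adjusted p = 0.194 and 0.148). Of 4 D1 markers, 4 were called higher in D1-MSNs in whole cell and in both sets of RiboTag libraries but 1 in nuclear libraries, where Penk, a marker of D2-MSNs, was called higher in D1-MSNs (log2 difference -2.44, adjusted p = 0.0081). All whole cell D1 libraries came from sequencing lanes 1 and 2 and all D2 libraries from lanes 5 and 6, with 1 of them run again in lane 8, so lane and cell type cannot be told apart there. Nuclear libraries of both types shared lanes 4 and 5, and no lane was given for RiboTag.

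Isl1 was higher in D1-MSNs and Sp9 and Six3 were higher in D2-MSNs by whole cell-FACS and by RiboTag in both sexes, each with groups that did not overlap. Foxp1 was higher in D2-MSNs in the same 3 comparisons, and Foxp2 was higher in D1-MSNs in whole cell libraries. Ebf1 and Zfp521 were higher in D1-MSNs in RiboTag libraries once genes of low count per length were kept. Nuclear libraries gave no call for any of the members that passed all filters. The share of all genes whose groups do not overlap was not computed. Ebf1 and Ikzf1 also had groups apart in nuclear libraries, with D2 above D1. Neither was called there by edgeR and TMM with the FPM filter alone.

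Members were tested where they exceeded 1 FPM (counts scaled to library size) in at least 2 libraries and passed a filter on FPKM, the FPM per kilobase of gene span. The FPKM filter asked for at least 1 in 1 library of the sorted samples and at least 0.1 in 2 RiboTag libraries. Either group could supply these libraries, so a gene could pass through the group where it was higher. Mean FPKM in whole cell D1 and D2 libraries was 2.13 and 0.548 for Isl1, 0.934 and 0.419 for Foxp2 and 0.537 and 1.22 for Sp9. For Isl1 it was 0.202 and 0.0499 in male and 0.211 and 0.0822 in female RiboTag libraries. Calls of such members are not independent of the filter. By whole cell-FACS, 6 of the 9 members passed, of which 2 were called higher in D1-MSNs, where 1.08% of all 16757 genes were called, and 3 higher in D2-MSNs, where 0.406% were. By nuclear-FACS, 3 passed and 0 were called, against 10.6% of 9864 genes called higher in D1-MSNs and 7.29% in D2-MSNs. At an unadjusted p under 0.05, none of these 3 passed either, where 3423 of 9864 genes did. In male RiboTag libraries 5 passed, with 1 called higher in D1-MSNs (5.21% of 6800 genes) and 4 in D2-MSNs (4.07%). In female RiboTag libraries 5 passed, with 1 called higher in D1-MSNs (2.58% of 7067 genes), 3 in D2-MSNs (1.94%) and 1 in neither. The median log2 difference over the members that passed was 0.61 in whole cell, -0.14 in nuclear, 0.46 in male RiboTag and 0.31 in female RiboTag libraries, and over all genes tested it was -0.10, 0.09, 0.00146 and -0.00017.

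Leaving out the FPKM filter changed which members were called. All 9 members were then tested in whole cell libraries, and 0 were called higher in D1-MSNs (0.0467% of 34270 genes) and 1 in D2-MSNs (0.0554%). The 9 members in nuclear libraries gave 4 calls higher in D1-MSNs (19.4% of 33197 genes) and 0 higher in D2-MSNs (5.43%). Among 8 members in male RiboTag libraries, 4 were called higher in D1-MSNs (5.1% of 10724 genes) and 4 in D2-MSNs (3.33%). Among 8 in female RiboTag libraries, 4 were called higher in D1-MSNs (2.04% of 11039 genes) and 3 in D2-MSNs (1.5%). Ikzf1 passed no filter in RiboTag libraries. Values from the FPM filter alone are named as such below, and all other values are from the fit with both filters. The CPM levels use the scaling of the genes that passed both filters. In nuclear libraries the FPM filter alone rescaled the groups, so that Six3, Foxp1 and Bcl11b had log2 differences of -1.54, -1.11 and -1.30 in place of -0.36, 0.04 and -0.14. Of 5 markers shared by both MSN types, 3 were called higher in D1-MSNs in nuclei with both filters (median log2 difference -0.72, all genes 0.09). With the FPM filter alone 5 were (median -1.86, all genes 0.38), as were 16 of 25 other striatal transcription factors (median -1.12).

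**Figure D1:**
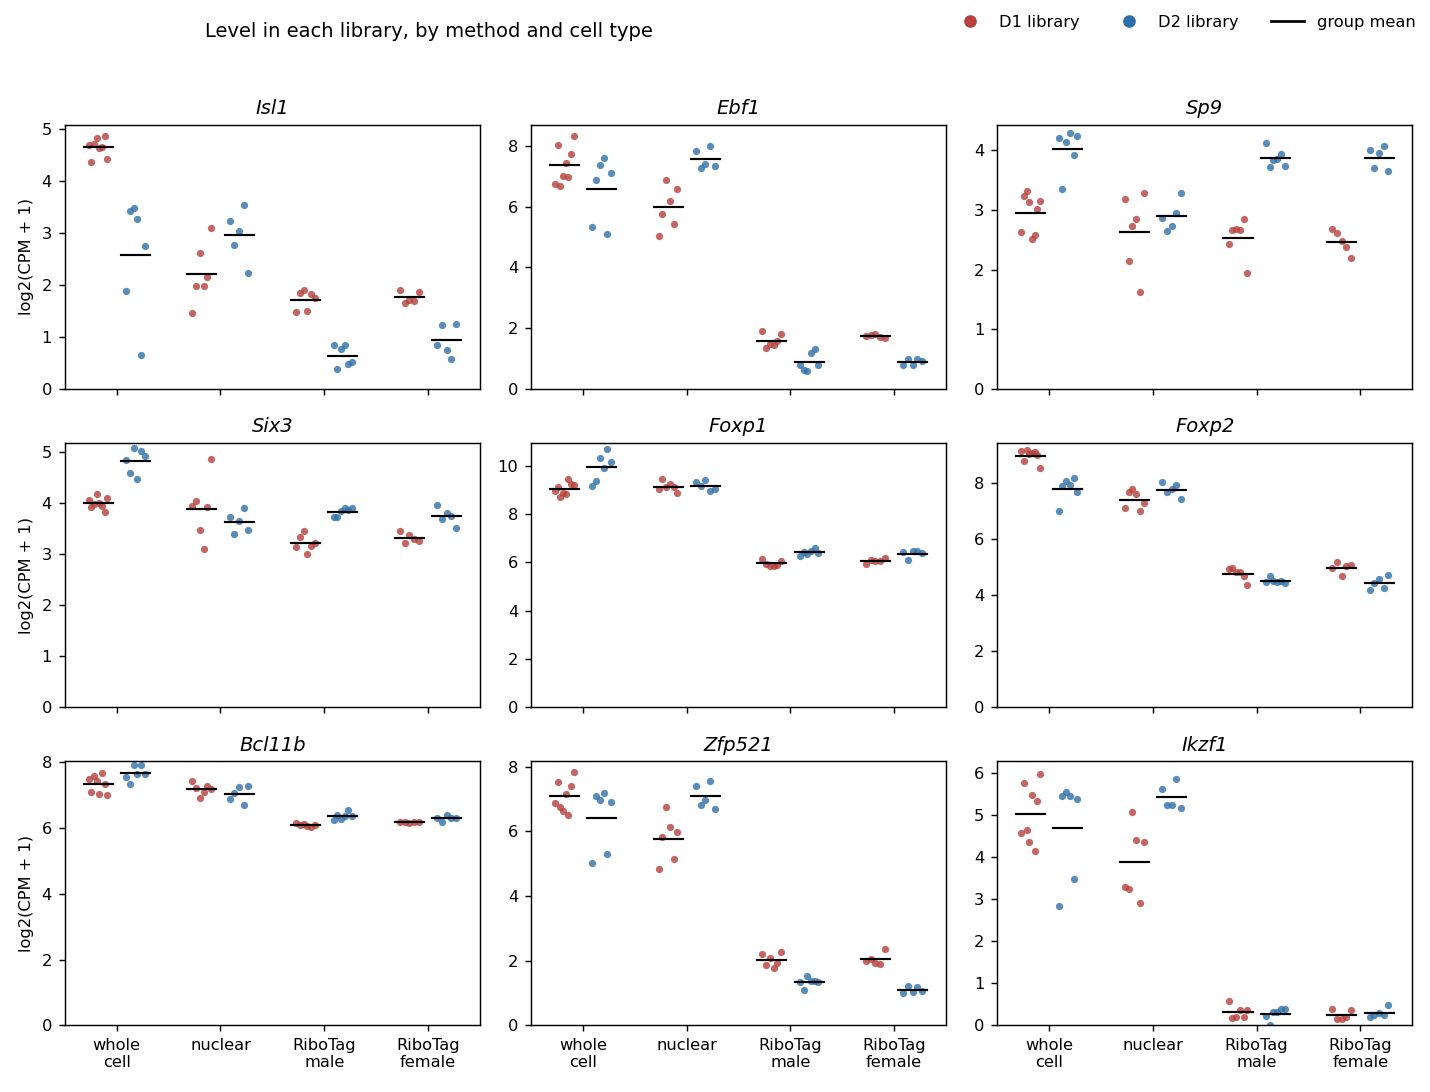
Level of each of the 9 members in each library, as log2(CPM + 1) on the vertical axis, by method on the horizontal axis, with 1 point per library and a line at the group mean of these log values. Isl1 points of D1 libraries lie above, and Sp9 and Six3 points below, all points of D2 libraries in whole cell and RiboTag but not in nuclear libraries.

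Isl1 (ENSMUSG00000042258) was the member with the largest difference in whole cell and in male RiboTag libraries. Its level in whole cell D1 libraries was 24.3 ± 2.98 CPM (SD, n = 8), with a lowest value of 19.6, a median of 24.8 and a highest value of 28.2. In whole cell D2 libraries it was 6.25 ± 3.95 CPM (SD, n = 6), from 0.575 through a median of 7.19 to 10.2. Every D1 library stood above every D2 library, and in the lowest D2 library the 10 counts were fewer than its background estimate (described with Ebf1). The log2 difference was -1.96 ± 0.39 (SE, adjusted p = 0.019), a 3.90-fold higher level in D1-MSNs.

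Ribosome-bound Isl1 RNA gave nearly the same difference in males. It was 2.31 ± 0.41 CPM (SD, n = 6; lowest 1.78, median 2.44, highest 2.75) in D1 and 0.569 ± 0.22 CPM (SD, n = 6; lowest 0.305, median 0.559, highest 0.805) in D2 libraries. The groups did not overlap, and the log2 difference was -1.96 ± 0.19 (SE, adjusted p = 7.17e-08). Female D1 libraries had 2.75, 2.14, 2.29, 2.24 and 2.63 CPM and female D2 libraries 0.804, 1.34, 0.678, 0.490 and 1.37 CPM. Each female D1 library was above each D2 library, with a log2 difference of -1.38 ± 0.20 (SE, adjusted p = 0.000128). Counts behind these values were 58 to 111 in male D1 and 7 to 32 in male D2 libraries.

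Nuclear Isl1 levels overlapped between the cell types. They ran from 1.77 through a median of 3.20 to 7.51 CPM in the 6 D1 libraries and were 8.38, 5.79, 7.20, 10.6 and 3.68 CPM in the D2 libraries. Isl1 did not pass the FPKM filter here, and with the FPM filter alone its log2 difference was -0.19 (95% interval -0.92 to 0.54, adjusted p = 0.656). Over 5 scalings and tools it ranged from -0.19 to 1.16, with the adjusted p from 0.067 to 0.978, so its sign depends on the scaling.

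Ebf1 (ENSMUSG00000057098) was higher in D1-MSNs on ribosomes, with 12 to 91 counts per library. Male D1 libraries had 2.03 ± 0.462 CPM (SD, n = 6; lowest 1.56, median 1.87, highest 2.73) and male D2 libraries 0.853 ± 0.399 CPM (SD, n = 6; lowest 0.493, median 0.703, highest 1.45). Female D1 libraries had 2.36, 2.40, 2.46, 2.24 and 2.21 CPM, and female D2 libraries 0.731, 0.978, 0.700, 0.981 and 0.889 CPM. The groups did not overlap in either sex. With the FPM filter alone the log2 difference was -1.22 ± 0.22 in males (SE, adjusted p = 0.000474) and -1.44 ± 0.14 in females (SE, adjusted p = 2.82e-06).

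Sorted samples did not show this pattern for Ebf1. Whole cell levels were 101 to 316 CPM (median 151, n = 8) in D1 and 33.1 to 193 CPM (median 127, n = 6) in D2 libraries. These ranges overlapped, and the log2 difference was -0.51 (95% interval -1.08 to 0.07, adjusted p = 0.893, FPM filter alone). In nuclear libraries the D2 levels of 227, 153, 167, 252 and 162 CPM all lay above the D1 levels of 32.0 to 117 CPM (median 62.6, n = 6). The log2 difference there was 0.47 with the FPM filter alone (adjusted p = 0.0526), and it ranged from 0.44 to 1.69 over 5 scalings and tools, with the adjusted p from 0.00178 to 0.0526.

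The background estimate was high for Ebf1 in sorted samples. For each library, the count per kilobase of gene over 1385 genes of olfactory and vomeronasal receptors, which NAc neurons are not expected to use, was multiplied by each member's span as an estimate of fragments that do not come from transcripts of the gene. For Ebf1 the estimate was 50.0% of all counts in whole cell D1, 58.2% in whole cell D2, 40.0% in nuclear D1 and 56.1% in nuclear D2 libraries. On ribosomes it was 5.55% in male D1 and 13.1% in male D2 libraries. After its subtraction the log2 difference of Ebf1, with the FPM filter alone, was -1.34 in male and -1.59 in female RiboTag libraries (adjusted p = 0.000518 and 2.53e-06). In nuclear libraries the subtracted value was 0.59, called higher in D2-MSNs (adjusted p = 0.0338), and in whole cell libraries it was -0.94 (adjusted p = 0.562).

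Zfp521 (ENSMUSG00000024420) had the same signs as Ebf1. In male RiboTag libraries it had 3.10 ± 0.569 CPM (SD, n = 6; lowest 2.42, median 3.02, highest 3.85) in D1 and 1.53 ± 0.237 CPM (SD, n = 6; lowest 1.13, median 1.55, highest 1.87) in D2. Female libraries had 3.00, 3.18, 2.81, 2.72 and 4.16 CPM in D1 and 0.999, 1.31, 1.06, 1.26 and 1.08 CPM in D2. All D1 libraries exceeded all D2 libraries of their sex. The log2 difference was -0.99 ± 0.13 in males (SE, adjusted p = 1.1e-05) and -1.47 ± 0.14 in females (SE, adjusted p = 2.34e-06), both with the FPM filter alone.

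Whole cell and nuclear Zfp521 values did not pass the test with edgeR and TMM. Levels of 89.5 to 225 CPM (median 128, n = 8) in whole cell D1 overlapped those of 31.1 to 146 CPM (median 121, n = 6) in D2 libraries, with a log2 difference of -0.39 (95% interval -0.88 to 0.10, adjusted p = 0.947). Nuclear D1 libraries had 27.5 to 107 CPM (median 58.5, n = 6), and the D2 libraries had 168, 112, 123, 186 and 103 CPM. The nuclear ranges overlapped at their edge and the log2 difference was 0.20 (95% interval -0.18 to 0.58, adjusted p = 0.367). Over 5 scalings and tools it ranged from 0.19 to 1.37, with an adjusted p as low as 0.045. Between 32.6 and 55.9% of the Zfp521 counts in the 4 sorted groups equalled the background estimate.

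Foxp2 (ENSMUSG00000029563) was higher in D1-MSNs by whole cell-FACS. Its level there was 505 ± 70.7 CPM (SD, n = 8; lowest 364, median 529, highest 574) in D1 and 227 ± 56.9 CPM (SD, n = 6; lowest 126, median 239, highest 285) in D2 libraries. The groups were apart, and the log2 difference was -1.15 ± 0.19 (SE, adjusted p = 0.00327). With the FPM filter alone, which tested 34270 genes instead of 16757, it was -0.997 (adjusted p = 0.119).

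On ribosomes the Foxp2 difference had the same sign and was smaller. In males it was 26.4 ± 3.88 CPM (SD, n = 6; lowest 19.6, median 27.2, highest 30.0) in D1 and 21.7 ± 1.49 CPM (SD, n = 6; lowest 20.5, median 21.3, highest 24.7) in D2 libraries, and the groups overlapped. Female levels were 29.9, 35.1, 24.3, 31.5 and 32.8 CPM in D1 and 17.3, 20.4, 22.9, 17.9 and 25.2 CPM in D2, where 1 D1 library fell below the highest D2 library. The log2 difference with the FPM filter alone was -0.29 ± 0.07 in males (SE, adjusted p = 0.0155) and -0.55 ± 0.10 in females (SE, adjusted p = 0.0019).

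Nuclear Foxp2 levels were 127 to 217 CPM (median 174, n = 6) in D1 and 260, 201, 216, 242 and 170 CPM in D2 libraries, with overlap. With the FPM filter alone the log2 difference was -0.77 (adjusted p = 0.0112), but over 5 scalings and tools it ranged from -0.77 to 0.53 and its sign depends on the scaling. The background estimate was 23.7% of the Foxp2 counts in nuclear D1 and 66.4% in nuclear D2 libraries. After its subtraction, with the FPM filter alone, the log2 difference was -1.31, called higher in D1-MSNs (adjusted p = 0.0137).

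Sp9 (ENSMUSG00000068859) was the member with the largest difference in favour of D2-MSNs by whole cell-FACS and by RiboTag. Whole cell D1 libraries had 6.87 ± 1.69 CPM (SD, n = 8; lowest 4.70, median 7.40, highest 9.00) and D2 libraries 15.6 ± 3.49 CPM (SD, n = 6; lowest 9.24, median 17.0, highest 18.6). The groups touched without overlapping, and the log2 difference was 1.19 ± 0.23 (SE, adjusted p = 0.0178), a 2.28-fold higher level in D2-MSNs. With summed exons as gene length the call was lost (1.44, adjusted p = 0.0686).

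RiboTag libraries separated the cell types by Sp9 with a wide gap. Male D1 libraries had 4.90 ± 1.17 CPM (SD, n = 6; lowest 2.82, median 5.33, highest 6.18) and male D2 libraries 13.7 ± 1.58 CPM (SD, n = 6; lowest 12.1, median 13.4, highest 16.4). Female D1 libraries had 5.44, 5.11, 4.57, 4.17 and 3.58 CPM and female D2 libraries 15, 12.0, 14.5, 15.8 and 11.6 CPM. The lowest D2 library of either sex had 11.6 CPM and the highest D1 library 6.18 CPM. The log2 difference was 1.47 ± 0.11 in males (SE, adjusted p = 7.47e-10) and 1.60 ± 0.11 in females (SE, adjusted p = 1.36e-09), with background under 0.2% of the counts in each group.

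In nuclei Sp9 showed no such gap. The D1 libraries had 2.06 to 8.72 CPM (median 5.92, n = 6) and the D2 libraries 6.25, 5.23, 5.65, 6.68 and 8.75 CPM. The ranges overlapped, and the log2 difference with the FPM filter alone was -0.95 (95% interval -1.77 to -0.14, adjusted p = 0.0742), ranging from -0.95 to 0.54 over 5 scalings and tools. Counts were as low as 6 in a D1 library, and the background estimate was 15.6% of the Sp9 counts in nuclear D1 and 59.6% in nuclear D2 libraries. After its subtraction, with the FPM filter alone, the log2 difference was -1.09 and not called (adjusted p = 0.101).

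Six3 (ENSMUSG00000038805) was higher in D2-MSNs in the same 3 comparisons as Sp9. Its whole cell level was 15.1 ± 1.27 CPM (SD, n = 8; lowest 13.1, median 15, highest 17.2) in D1 and 27.6 ± 4.56 CPM (SD, n = 6; lowest 21.3, median 28.5, highest 32.7) in D2 libraries. The log2 difference was 0.88 ± 0.15 (SE, adjusted p = 0.0063), without overlap. In male RiboTag libraries it was 8.33 ± 1.05 CPM (SD, n = 6; lowest 6.97, median 8.09, highest 9.91) in D1 and 13.2 ± 0.817 CPM (SD, n = 6; lowest 12.2, median 13.5, highest 14.1) in D2. The groups were apart there too, with a log2 difference of 0.67 ± 0.07 (SE, adjusted p = 2.77e-07).

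Female RiboTag libraries had 9.97, 8.26, 9.35, 8.79 and 8.61 CPM of Six3 in D1 and 14.5, 11.9, 13.0, 12.4 and 10.5 CPM in D2. The lowest D2 library was just above the highest D1 library, and the log2 difference was 0.48 ± 0.08 (SE, adjusted p = 0.00061). Nuclear D1 libraries had 7.53 to 28.2 CPM (median 14.2, n = 6), and the D2 libraries had 12.3, 9.50, 11.6, 13.9 and 10.1 CPM. All D2 values lay inside the D1 range, and the log2 difference was -0.36 (95% interval -0.94 to 0.22, adjusted p = 0.361). With the FPM filter alone it was -1.54 (adjusted p = 0.00751), and over 5 scalings and tools it ranged from -1.54 to 0.03. After subtraction of the background, with the FPM filter alone, it was -1.29 (adjusted p = 0.026).

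Foxp1 (ENSMUSG00000030067) was called higher in D2-MSNs by whole cell-FACS and by RiboTag in both sexes. Whole cell D1 libraries had 537 ± 93.6 CPM (SD, n = 8; lowest 421, median 528, highest 693) and D2 libraries 1048 ± 405 CPM (SD, n = 6; lowest 578, median 1051, highest 1669). The lowest D2 libraries lay within the D1 range, and the log2 difference was 0.96 ± 0.22 (SE, adjusted p = 0.038). That call was lost without any one of 7 libraries, namely D1 number 1, 3, 4, 5 or 7 or D2 number 5 or 6, with an adjusted p of up to 0.0858.

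Male RiboTag libraries had 61.3 ± 4.98 CPM of Foxp1 (SD, n = 6; lowest 57.2, median 59.3, highest 69.4) in D1 and 84.6 ± 7.31 CPM (SD, n = 6; lowest 75.6, median 84.3, highest 96.8) in D2. These did not overlap, and the log2 difference was 0.46 ± 0.06 (SE, adjusted p = 3.33e-06). Female libraries had 60.4, 68.0, 65.1, 66.2 and 71.9 CPM in D1 and 85.4, 67.9, 86.5, 87.8 and 82.1 CPM in D2. A single D2 library fell within the D1 range, and the log2 difference was 0.31 ± 0.06 (SE, adjusted p = 0.00614). With total counts as library sizes it was 0.17 and not called (adjusted p = 0.159). Nuclear levels were 466 to 712 CPM (median 557, n = 6) in D1 and 643, 582, 678, 500 and 523 CPM in D2. They overlapped fully, with a log2 difference of 0.04 (95% interval -0.28 to 0.36, adjusted p = 0.873). By the FPM filter alone the nuclear value was -1.11 (adjusted p = 0.0111), and over 5 scalings and tools it ranged from -1.11 to 0.27. After subtraction of the background, with the FPM filter alone, it was -0.64 and not called (adjusted p = 0.0661).

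Bcl11b (ENSMUSG00000048251), which marks MSNs of both kinds, had the smallest difference among the 5 members called in male RiboTag libraries. Its whole cell level was 161 ± 28.5 CPM (SD, n = 8; lowest 127, median 164, highest 203) in D1 and 204 ± 31.9 CPM (SD, n = 6; lowest 161, median 199, highest 242) in D2. The groups overlapped, and the log2 difference of 0.34 (95% interval 0.03 to 0.66) did not pass the test (adjusted p = 0.285). By DESeq2, the tool of the study, it was 0.49 and was called (adjusted p = 0.00629). Male RiboTag libraries had 67.1 ± 2.07 CPM (SD, n = 6; lowest 64.0, median 67.5, highest 70.0) in D1 and 81.1 ± 6.15 CPM (SD, n = 6; lowest 74.1, median 81.1, highest 91.3) in D2, without overlap. The log2 difference was 0.27 ± 0.05 (SE, adjusted p = 0.000348).

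In females the Bcl11b levels were 71.0, 71.7, 69.9, 72.0 and 70.8 CPM in D1 and 78.4, 72.1, 82.1, 77.2 and 77.5 CPM in D2. The lowest D2 library exceeded the highest D1 library by little, and the log2 difference of 0.13 (95% interval 0.03 to 0.22) did not pass the test (adjusted p = 0.148). Nuclear libraries had 119 to 170 CPM (median 145, n = 6) in D1 and 117, 132, 151, 104 and 153 CPM in D2. They overlapped, with a log2 difference of -0.14 (95% interval -0.44 to 0.16, adjusted p = 0.498). The FPM filter alone gave a nuclear value of -1.30 (adjusted p = 0.00856), and over 5 scalings and tools it ranged from -1.30 to 0.18. After subtraction of the background, with the FPM filter alone, it was -0.72 (adjusted p = 0.0474).

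Ikzf1 (ENSMUSG00000018654) had too few fragments on ribosomes for a test. RiboTag libraries had 0 to 16 counts each, which is 0.139 to 0.491 CPM in male D1 and 0 to 0.305 CPM in male D2 libraries. No difference was detectable at this depth. Whole cell levels were 16.7 to 61.9 CPM (median 31.7, n = 8) in D1 and 6.13 to 46.0 CPM (median 41.4, n = 6) in D2. These overlapped, with a log2 difference of -0.02 (95% interval -0.68 to 0.63, adjusted p = 1.00) by the FPM filter alone. In nuclei the D2 levels of 47.9, 36.6, 37.0, 56.8 and 34.8 CPM lay above the D1 levels of 6.53 to 32.6 CPM (median 14.1, n = 6), with a log2 difference of 0.43 (95% interval -0.06 to 0.92, adjusted p = 0.147). That value ranged from 0.29 to 1.58 over 5 scalings and tools, with an adjusted p as low as 0.0162. The background estimate was 33.6% of the Ikzf1 counts in nuclear D1 and 56.4% in nuclear D2 libraries, and 58.0 and 48.0% in whole cell D1 and D2 libraries.

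**Figure D2:**
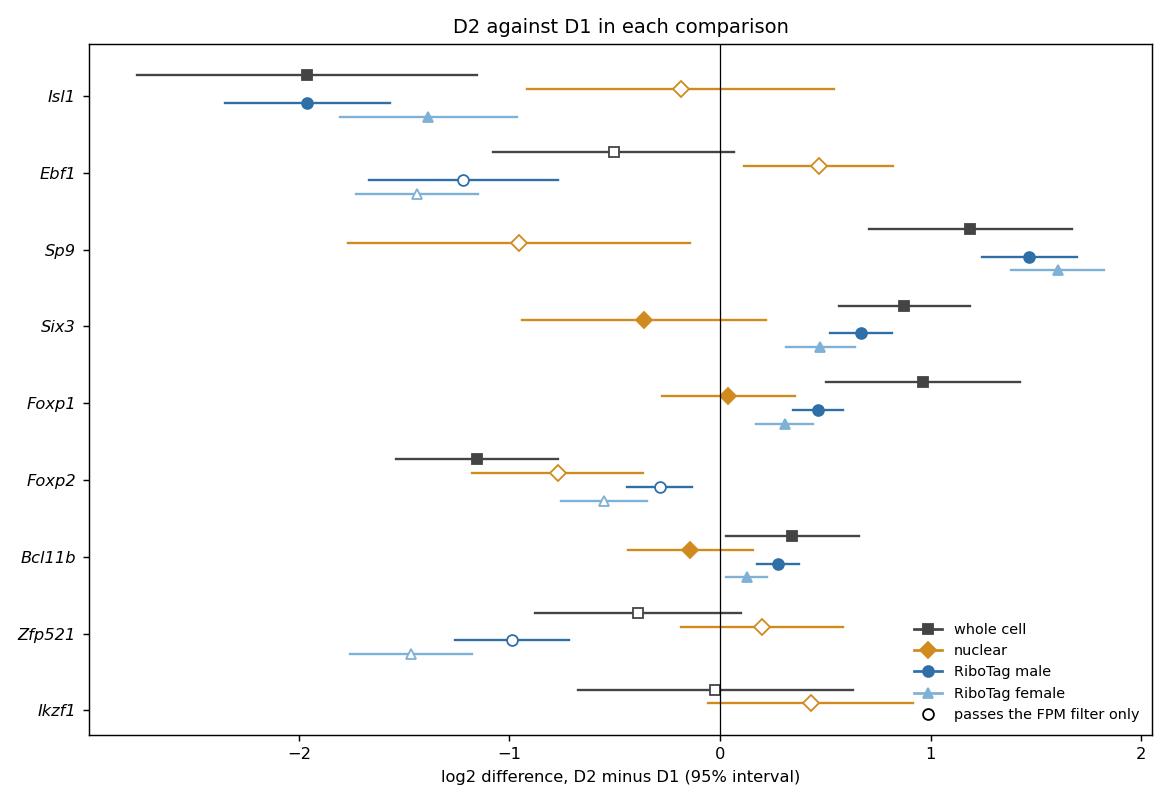
Log2 difference of each member between D2- and D1-MSNs on the horizontal axis, with 95% intervals, in whole cell (squares), nuclear (diamonds), male RiboTag (circles) and female RiboTag libraries (triangles). Open symbols are values from the fit with the FPM filter alone, and filled symbols from the fit with both filters. In whole cell and RiboTag libraries Isl1 lies left of 0 and Sp9 and Six3 right of 0 with intervals that leave out 0. The nuclear values were -0.19 for Isl1 and -0.95 for Sp9 with the FPM filter alone, and -0.36 for Six3 with both filters. The nuclear interval of Sp9 also leaves out 0, on the left.

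The ratio of Isl1 to Sp9 counts within a library needs no scaling between libraries, and it set D1 apart from D2 in 3 of the 4 comparisons. In those 3 comparisons Isl1 and Sp9 each separated the groups, in opposite directions, so the ratio had to separate them and adds no further support. As log2 of the ratio by whole cell-FACS it was 1.86 ± 0.45 in D1 libraries (SD, n = 8), against -1.78 ± 1.67 in D2 libraries (SD, n = 6). The lowest D1 value was 1.21 and the highest D2 value 0.07. Male RiboTag libraries had -1.07 ± 0.44 (SD, n = 6) in D1, against -4.67 ± 0.52 (SD, n = 6) in D2, and female libraries -0.92 ± 0.30 (SD, n = 5) and -3.98 ± 0.83 (SD, n = 5). D1 and D2 libraries did not overlap in either sex, with the lowest male D1 library at -1.55 and the highest male D2 library at -4.08. In nuclei the ratio was -0.52 ± 1.00 (SD, n = 6) in D1, against 0.07 ± 0.76 (SD, n = 5) in D2, with overlap. The background estimate was 24.2% of the Isl1 and 15.6% of the Sp9 counts in nuclear D1 libraries. In nuclear D2 libraries it was 41.2 and 59.6%.

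**Figure D3:**
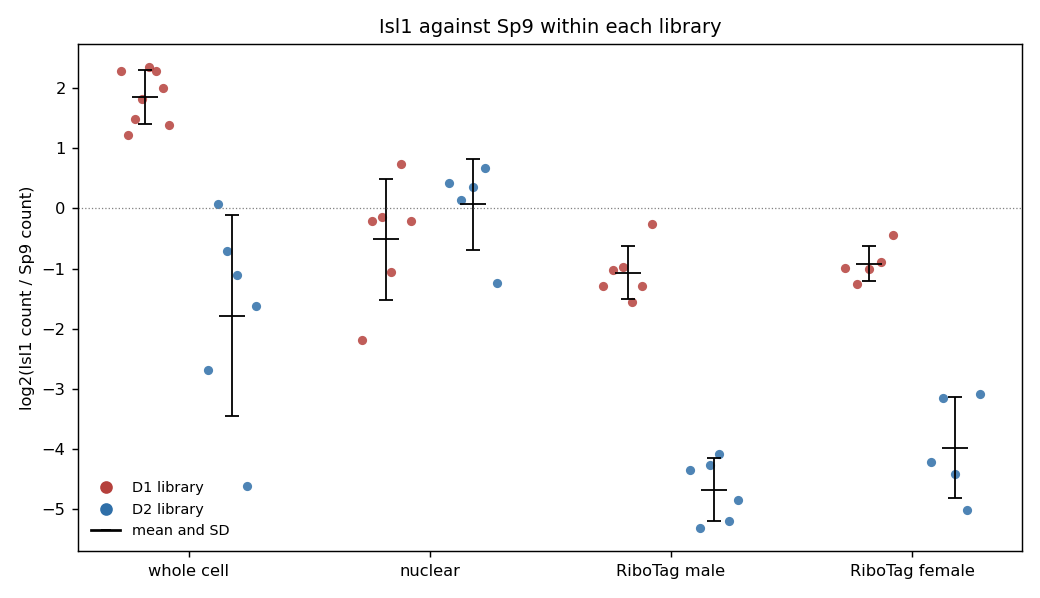
Log2 of the Isl1 count over the Sp9 count on the vertical axis, with 1 point per library, the group mean and its SD, by method on the horizontal axis. D1 libraries lie above D2 libraries in whole cell and RiboTag samples, whereas nuclear D1 (-2.19 to 0.74) and D2 (-1.25 to 0.67) libraries overlap.

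Whether the D2 minus D1 difference itself differed between methods was tested in 1 fit over all libraries labelled male, with the FPM filter alone. This fit shares 1 estimate of spread per gene over the methods, whose libraries differ in spread, which is why cell types were tested within each method. The SEs and adjusted p values of the differences between methods rest on that shared estimate. Between whole cell and RiboTag libraries no member was called, where 0.0993% of 36239 genes were, and the smallest adjusted p among the members was 0.985. At an unadjusted p under 0.05, 4 members passed, namely Ebf1, Foxp1, Foxp2 and Zfp521, as did 1600 of 36239 genes. The interval of this difference of differences was -0.85 to 1.02 for Isl1 and -0.72 to 0.67 for Sp9, so that the methods may still differ by up to that much.

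Nuclear libraries differed from whole cell libraries for 6 members under TMM scaling, of which total counts as library sizes left 2 called while adding 3 others. Against whole cell libraries the 6 calls compare with 23.3% of all genes. Sp9 (-2.44 ± 0.35), Six3 (-2.66 ± 0.34), Foxp1 (-2.33 ± 0.35) and Bcl11b (-1.86 ± 0.34) had a lower log2 difference in nuclei (± SE, adjusted p = 1.67e-05, 3.68e-06, 2.7e-05 and 0.000168). Isl1 (1.77 ± 0.47) and Ebf1 (0.95 ± 0.35) had a higher one, that is, less in favour of D1-MSNs (adjusted p = 0.00549 and 0.0423). With total counts as library sizes, Isl1 and Ebf1 kept their calls and Sp9 (-0.55), Six3 (-0.69), Foxp1 (-0.52) and Bcl11b (0.000398) lost theirs, whereas Foxp2 (1.91), Zfp521 (2.17) and Ikzf1 (2.02) were then called (adjusted p = 0.000566, 0.00113 and 0.0083). Ebf1 lost its call under limma voom (0.76, adjusted p = 0.0731). The median of all genes in this contrast was 0.48, and 2.06 with total counts, where 19073 of 36239 genes were called, 18856 of them higher in nuclei. After subtraction of the background 6 members were called, where 5363 of 35948 genes were.

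Against male RiboTag libraries 7 members were called, where 13.9% of genes were. Sp9 (-2.47 ± 0.36), Six3 (-2.20 ± 0.35), Foxp1 (-1.58 ± 0.36) and Bcl11b (-1.59 ± 0.35) were lower in nuclei, and Isl1 (1.86 ± 0.50), Ebf1 (1.71 ± 0.38) and Zfp521 (1.21 ± 0.30) were higher (± SE, adjusted p from 0.00011 to 0.00954). The median of all genes was 0.24 (1.5 with total counts), and with total counts as library sizes 3 members were called, where 2606 of 36239 genes were. After subtraction of the background 6 members were called, where 2685 of 35948 genes were, and Isl1 was not (2.07, adjusted p = 0.0619). Both contrasts share the nuclear libraries.

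The sexes gave the same signs for the 8 members tested in RiboTag libraries. In the test of the difference between sexes 0 of 5 members were called, as were 0 of 7184 genes (0% by edgeR and by limma voom, with 510 and 646 genes at an unadjusted p under 0.05). The D2 minus D1 difference in females minus that in males was 0.58 (95% interval -0.04 to 1.2) for Isl1, 0.13 (-0.22 to 0.49) for Sp9, -0.20 (-0.42 to 0.03) for Six3, -0.16 (-0.35 to 0.03) for Foxp1 and -0.15 (-0.28 to -0.02) for Bcl11b. With the FPM filter alone it was -0.22 (-0.81 to 0.36) for Ebf1, -0.27 (-0.54 to 0.0035) for Foxp2 and -0.48 (-0.88 to -0.08) for Zfp521, none of them called. Averaged over D1 and D2, female and male levels differed for 0 of the 5 members and for 0.0835% of 7184 genes.

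Summed markers of other cell types differed between the groups in some of these comparisons. The summed level of 6 cholinergic interneuron markers was 0.720 to 1.65 CPM in male D1 and 4.78 to 6.17 CPM in male D2 RiboTag libraries, where Isl1, which cholinergic interneurons also express, was the lower in D2. The sum of 6 GABA interneuron markers was 19.5 to 26.1 CPM in male D1 and 10.5 to 15.4 CPM in male D2 libraries, and that of 4 markers of cortical excitatory neurons was 18.4 to 44.1 and 1.04 to 11.7 CPM. In nuclear libraries the sum of 5 endothelial markers was 17.5 to 143 CPM in D1 and 175 to 318 CPM in D2. The cholinergic sum was 10.6 to 45.4 CPM in nuclear D1 and 51.1 to 93.2 CPM in nuclear D2, beside the nuclear Isl1 levels given above. Sums of GABA interneuron (50.2 to 106 and 127 to 216 CPM), microglial (64.1 to 169 and 180 to 267 CPM), mural (8.12 to 68.4 and 86.4 to 155 CPM) and oligodendrocyte precursor markers (17.3 to 48.8 and 52.1 to 76.5 CPM) also did not overlap between nuclear D1 and D2. Oligodendrocyte (285 to 776 and 302 to 635 CPM), astrocyte and cortical excitatory neuron sums overlapped there. All these sums include background. Scaled to total counts, its rate was 0.00458 to 0.173 CPM per kilobase in nuclear D1 and 0.253 to 0.408 in nuclear D2 libraries. Tested singly in nuclei with both filters, 1 GABA interneuron and 1 astrocyte marker were called higher in D1-MSNs and no such marker in D2-MSNs. With the FPM filter alone, 4 oligodendrocyte, 3 astrocyte, 2 GABA interneuron, 2 microglial and 1 cortical marker were called higher in D1-MSNs. Called higher in D2-MSNs were 1 GABA interneuron, 1 endothelial and 1 mural marker. The part of these cell types in the members' differences was not tested.

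Within sequencing lanes the nuclear libraries were too few for a call, since Drd1 (-1.85 and -1.58) and Drd2 (1.98 and 1.63) were not called there either (adjusted p from 0.105 to 0.304). The log2 difference of Six3 was -0.14 in lane 4 and -0.34 in lane 5, that of Foxp1 0.30 and -0.04, and that of Bcl11b -0.25 and 0.05, with 3 D1 and 2 or 3 D2 libraries per lane.

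**Figure D4:**
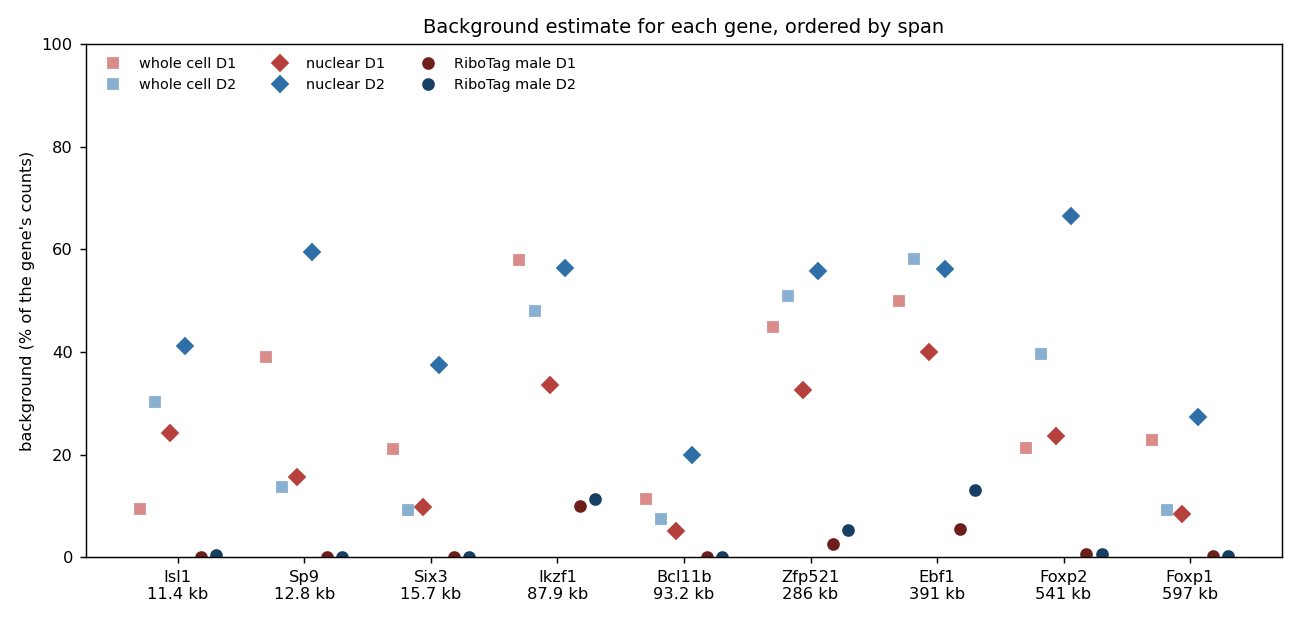
Background estimate as a percentage of each member's counts on the vertical axis, with the members ordered by span on the horizontal axis, for whole cell (squares), nuclear (diamonds) and male RiboTag (circles) groups of D1 and D2 libraries. Ebf1, Zfp521 and Ikzf1 have 32.6 to 58.2% in the sorted groups, whereas the RiboTag points of Isl1, Sp9, Six3, Foxp1, Foxp2 and Bcl11b lie under 1%.

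Per length of exon, Bcl11b was the highest member on ribosomes and Ikzf1 the lowest. In male D1 RiboTag libraries the order by FPKM per summed exon length was Bcl11b (8.27 ± 0.256), Foxp1 (4.46 ± 0.362), Foxp2 (1.62 ± 0.237), Six3 (1.53 ± 0.193), Sp9 (0.972 ± 0.232), Isl1 (0.582 ± 0.104), Zfp521 (0.441 ± 0.081), Ebf1 (0.208 ± 0.0474) and Ikzf1 (0.0431 ± 0.024), each ± SD with n = 6. The ranges of Foxp2 and Six3, of Sp9 and Isl1 and of Isl1 and Zfp521 overlapped, and the other neighbours did not. In male D2 libraries Sp9 (2.71 ± 0.313) and Six3 (2.43 ± 0.15) stood next after Bcl11b and Foxp1, above Foxp2 (1.33 ± 0.091), and Isl1 (0.144 ± 0.0555) stood below Zfp521 (0.218 ± 0.0337). The ranges of Sp9 and Six3 overlapped, as did those of Zfp521, Isl1, Ebf1 and Ikzf1 with their neighbours. Per gene span, over which fragments were counted, the order was different: Sp9 was the highest in D2 RiboTag libraries of both sexes (1.07 ± 0.123 FPKM in males and 1.08 ± 0.145 in females) and Ebf1 the lowest (0.00218 ± 0.00102 and 0.00219 ± 0.000342), while Bcl11b and Ikzf1 kept the ends of the order in D1.

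Related genes were counted in the same fits. Of 18 paralogs of the members, 3 passed both filters in whole cell and in RiboTag libraries and 1 in nuclear libraries, and none was called. Foxp4 was called higher in D1-MSNs in male (-0.43, adjusted p = 0.0044) and female RiboTag libraries (-0.58, adjusted p = 0.0026) with the FPM filter alone, and was named after its values were seen. Of 25 other striatal transcription factors, 21 passed in whole cell libraries with 2 called higher in D2-MSNs (0.406% of all genes), and 17 passed in male RiboTag libraries with 7 called higher in D2-MSNs (4.07% of all genes) and 0 in D1-MSNs (5.21%). Among these Meis2, a homeodomain factor of the ganglionic eminence, was called at 0.35 ± 0.04 in male and 0.22 ± 0.06 in female RiboTag libraries (± SE, adjusted p = 3.25e-06 and 0.0255), but at -0.69 ± 0.20 in nuclei (adjusted p = 0.0286). With total counts the calls in female RiboTag (0.08, adjusted p = 0.524) and nuclear libraries (-0.20, adjusted p = 0.561) were lost, as they were when any 1 of 5 female or 1 of 4 nuclear libraries was left out.

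Tle4, a corepressor, was called at 0.61 ± 0.14 in whole cell and 0.33 ± 0.05 in male RiboTag libraries (± SE, adjusted p = 0.0403 and 0.000128). The whole cell call was lost under voom, total counts, the FPM filter alone, summed exons, background subtraction and the replicate block (adjusted p from 0.0527 to 0.59), and without any 1 of 5 libraries. Foxo1, a forkhead factor of insulin signalling, was called at 0.96 ± 0.18 and 0.23 ± 0.07 in the same comparisons (adjusted p = 0.0151 and 0.0268). Its whole cell call was lost with the FPM filter alone, summed exons and the replicate block (adjusted p = 0.0807, 0.216 and 0.0565). Its male RiboTag call was lost with total counts (adjusted p = 0.184) and without any 1 of 4 libraries. Nuclear libraries gave 1 call in each direction among 18 of the 25 factors tested, where 10.6% (D1) and 7.29% (D2) of all genes were called, and female RiboTag libraries 1 in each direction among 18, where 2.58% and 1.94% were. The median log2 difference of the 17 factors in male RiboTag libraries was 0.23, against 0.00146 over all genes tested.

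Six3, Foxp1 and Bcl11b passed the filters in all 4 comparisons, and their 4 log2 differences were set against those of 4587 genes. The genes with the smallest root mean square difference were Gm48677 (0.10), Zswim6 (0.16) and Gprin3 (0.16) for Six3, and Syt6 (0.13), Gm14377 (0.14) and Gm14965 (0.14) for Foxp1. For Bcl11b they were Runx1t1 (0.03), N4bp2l1 (0.05) and Prr7 (0.05), and the log2 differences of Bcl11b itself lay between -0.14 and 0.34.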

How the data were processed

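The authors aligned stranded, ribosome-depleted libraries to GRCm38 with HISAT2 2.0.5 and deposited raw counts per gene from featureCounts, over whole gene bodies and without regard to strand. The 49 columns were summed into 47 libraries, since 1 whole cell D2 library had a further lane and 1 whole cell column was taken as a repeat of D1 number 1. The name of that column and the study's supplement give D1, whereas its sample title names D2. The study counts more whole cell samples of each cell type than the libraries used here. For 2 whole cell sample titles no column was analysed here. Of 52636 genes, 52489 were matched by identifier to GENCODE vM21. Tested genes exceeded 1 FPM in 2 or more libraries, and an FPKM over the gene span of at least 1 in 1 library and at most 50000 in all (RiboTag: at least 0.1 in 2 libraries) was required. The thresholds are those the study gives. Its text does not say which gene length was used, and the gene span was chosen here. D1- and D2-MSNs were compared in R 4.3.3 by the quasi-likelihood test of edgeR 4.0.16 with TMM normalization and Benjamini-Hochberg adjustment over all genes tested, with the SE taken as the log2 difference over the square root of F and a prior count of 1. The study used DESeq2. The script was tested on simulated data. Total counts ranged from 3701255 to 68777008, and floors and intervals of counts cover counting error only.

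The members and lists were chosen with earlier results of these data known. Besides the 9 members, the 3 genes nearest to each member in the 4 log2 differences were named, and up to 3 genes of each list called in the same direction in at least 2 comparisons with the largest difference in male RiboTag libraries. By this rule Drd2, Pdyn and Adora2a were also named among the label markers, with log2 differences of 2.71, -2.61 and 2.43 in male RiboTag libraries. Alternatives were DESeq2 1.42.0, limma 3.58.1 with voom and quality weights, DESeq2 size factors, total counts, the FPM filter alone, summed exons as gene length, the study's own threshold for differential genes, the repeat column left out or kept apart, the replicate number as a block, and each library left out in turn. Subtraction of the background estimate with the FPM filter alone, the FPM filter alone with other tools, and fits within nuclear lanes were chosen after seeing the data.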

Additional observations from a re-analysis of the deposited data

Results flagged for a closer look

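In 72 groups of 5 to 8 libraries, 2 libraries stood apart from the rest of their group, and chance alone flags about 1 in 20 groups. Foxp1 was 67.9 CPM in the female RiboTag D2 library 2, where the other 4 libraries had 82.1 to 87.8 CPM. Foxp2 was 24.7 CPM in the male RiboTag D2 library 2, where the other 5 had 20.5 to 21.5 CPM.

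The D2 minus D1 difference of 7 members differed between methods, in the fit over all male libraries. Between nuclear and whole cell libraries (nuclear minus whole cell, on the log2 scale) it differed for Isl1 (1.77), Ebf1 (0.95), Sp9 (-2.44), Six3 (-2.66), Foxp1 (-2.33) and Bcl11b (-1.86). Between nuclear and male RiboTag libraries it differed for Isl1 (1.86), Ebf1 (1.71), Sp9 (-2.47), Six3 (-2.20), Foxp1 (-1.58), Bcl11b (-1.59) and Zfp521 (1.21). The background estimate was a larger share of the counts in nuclear D2 than in nuclear D1 libraries for each of these members. After its subtraction 6 of these members were called between nuclear and whole cell libraries, where 5363 of 35948 genes were. Between nuclear and RiboTag libraries 6 were called, where 2685 of 35948 genes were, and Isl1 was not (2.07, adjusted p = 0.0619).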

How the results depend on the processing

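Of 178 recomputed log2 differences between cell types (19 values of members), 150 kept their sign and their side of the threshold, as did 217 of 227 with a library left out. With the FPM filter alone these were 0 (D1-higher) and 1 (D2-higher) in whole cell, 4 D1-higher in nuclear and 4 D1-higher in male and female RiboTag libraries, and with summed exons as length 0 and 0, 4 and 1 (D2-higher), 4 and 4. The study's own rule for differential genes left 0 D1-higher members in either sex of RiboTag, since Isl1 fell under its count percentile. Total counts left 3 members called between nuclear and RiboTag libraries and gave 1 between female and male (Isl1, 0.48, adjusted p = 0.0359).

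The sign turned in nuclear libraries for Six3 (0.25) and Bcl11b (0.41) with total counts and for Foxp1 with the FPM filter alone (-1.11), summed exons (-1.05) and background subtracted (-0.092), and in female RiboTag for Bcl11b (-0.013) with total counts. Of the other genes named, it turned in nuclear libraries for Foxo1 under DESeq2 (0.018), voom (0.057), size factors (0.014) and total counts (0.49), for Adora2a under voom (0.12) and total counts (0.50) and for Pdyn under total counts (0.37), and in female RiboTag for Foxo1 under total counts (-0.083). Differences between methods turned for Foxp2 (nuclear minus RiboTag: 0.00073 with size factors, 0.84 with total counts), Bcl11b (nuclear minus whole cell: 0.000398 with total counts), Isl1 (whole cell minus RiboTag: -0.23 with total counts, -0.31 with background subtracted), Bcl11b (-0.069) and Ikzf1 (-0.24) with total counts and Sp9 (0.36) with background subtracted. Between the sexes they turned for Six3 under voom (-0.0033) and Sp9 under total counts (0.073). The causes were not tested.

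With a library left out, whole cell Foxp1 (0.79 to 1.21) lost its call 7 times and nuclear Foxp1 (-0.084 to 0.14) turned sign without D1 library 1, 5 or 6. Nuclear Adora2a (-0.23 to 0.038) turned sign 2 times and nuclear Foxo1 (-0.14 to 0.11) 5 times. The members called by whole cell-FACS numbered 2 to 2 (D1-higher) and 2 to 3 (D2-higher), and in the other comparisons the numbers did not move. Same-numbered whole cell D1 and D2 libraries deviated together with r from -0.29 to 0.10 and male RiboTag libraries with r from -0.06 to 0.07, so they share only a number. With the replicate block, 0 members stayed D2-higher in whole cell libraries (Sp9, adjusted p = 0.0765; Six3, 0.0648; Foxp1, 0.0883), and no call of a member changed in male RiboTag libraries. No paired analysis was possible for nuclear and female RiboTag libraries because the numbers in their column names do not match those of the sample titles, so that those columns could be placed only in their groups. Over all genes, 249 were called by whole cell-FACS (181 D1-higher, 68 D2-higher), against 727 by DESeq2 (261 and 466), 46 by voom (19 and 27), 250 with size factors (91 and 159), 746 with total counts (683 and 63), 35 with the FPM filter alone, 27 with summed exons, 122 with background subtracted, 139 with the replicate block, 439 with the repeat kept apart and 60 to 351 with a library left out. In nuclear libraries 1760 were called (1041 and 719), against 2316 by voom (858 and 1458), 3000 with total counts (395 and 2605), 8237 with the FPM filter alone, 8339 with summed exons, 2644 with background subtracted and 548 to 2652 with a library left out. In male RiboTag libraries 631 were called (354 and 277), against 445 with total counts (316 and 129) and 174 by the study's rule, and in female libraries 319 (182 and 137), against 693 (638 and 55) and 134. The cell type effect differed between nuclear and whole cell libraries for 8455 genes (6040 lower and 2415 higher in nuclei), against 8064 by voom (2270 and 5794), 7481 with size factors (3363 and 4118), 19073 with total counts (217 and 18856) and 5363 with background subtracted. Between nuclear and RiboTag libraries it was 5039 (4550 and 489), against 12885 by voom (5006 and 7879), 2693 with size factors (2055 and 638), 2606 with total counts (121 and 2485) and 2685 with background subtracted. Between whole cell and RiboTag libraries it was 36 (28 and 8), against 500 by voom (454 and 46) and 38 with total counts (34 and 4). Female and male levels differed for 6 genes, against 1152 with total counts (7 and 1145).

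The low counts of Isl1, Ebf1 and Zfp521 on ribosomes and the background in sorted samples limit the precision of these values.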
